A study of Rattus norvegicus with 32 samples.

Results

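The genes described here encode subunits of the receptors for glutamate and GABA, the main excitatory and inhibitory transmitters of the hippocampus. They are the rows of the deposited count table whose gene name is one of 33 listed receptor symbols, 33 of the 32883 genes in the table. The list holds 4 AMPA, 6 NMDA, 5 kainate, 1 delta, 6 metabotropic glutamate, 9 GABA-A and 2 GABA-B receptor genes, and all 33 had enough counts to be tested. Expression was measured by RNA sequencing of 1 hippocampus from each of 32 wild-type rat pups. ID insulin (8 libraries) were pups of dams fed a purified iron-deficient diet of 3 to 6 ppm iron from gestational day 3 to postnatal day 7, given insulin through the nose 2 times a day from postnatal day 8 to 21. ID control (9 libraries) had the same diet and are labelled control for treatment. IS insulin (7 libraries) were iron-sufficient pups given insulin on the same days, and IS control (8 libraries) were iron-sufficient pups labelled control. The study asked how insulin given this way alters hippocampal expression after perinatal iron deficiency. The labels name no vehicle for the control pups and give collection on postnatal day 7 or 21 without assigning a day to a sample. Insulin treatment ended on day 21, so insulin-treated pups were collected then, while the day of the control pups is not given, and an age difference between insulin and control groups cannot be told apart from insulin in the labels. Litters are not stated either, so every p-value rests on the spread among these particular pups.

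AMPA, kainate and NMDA receptors are ion channels assembled from several subunits and opened by glutamate. NMDA receptors combine the obligatory subunit encoded by Grin1 with Grin2 or Grin3 subunits, and during postnatal development of the forebrain the Grin2a subunit is taken up alongside or in place of Grin2b and Grin2d. Metabotropic receptors signal through G proteins instead. GABA-A receptors are chloride channels built from alpha, beta and gamma or delta subunits, and GABA-B receptors are G-protein-coupled pairs of the Gabbr1 and Gabbr2 products.

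Total counts per library were 19619345 to 28062630, and the receptor genes took 0.426% to 0.593% of them. Of 17 principal neuron markers in the table, Prox1, Neurod6, Wfs1, Dkk3 and Cabp7 had medians of 103, 211, 364, 356 and 218 CPM (counts scaled to the TMM-adjusted library total), while Lct, Fibcd1, Tdo2, Iyd and Spink8 had medians under 1 CPM. The first number in the sample titles was 73 for ID insulin, 69 (5 libraries) or 70 (4 libraries) for ID control, 72 for IS insulin and 71 for IS control. Groups therefore cannot be told apart from these numbers. Inside ID control, 0 of 33 receptor genes were called between numbers 70 and 69 by edgeR (background 0.22% of genes called). Log2 fold changes were -0.39 to 0.24. An unadjusted p under 0.05 was reached by 1 of 33 receptor genes and by 1338 of 15008 genes tested there. ID insulin replicate 3 stood apart from its group, at a chi-square per gene of 46.1 to 102 from the 7 others against 36.4 or less within the other groups, and it was the lowest library of its group for 15 of 33 receptor genes. IS control replicate 5 was the highest of its group for 16 of 33, and IS insulin replicate 1 the lowest for 12. ID insulin replicate 5 had 778 CPM summed over 12 thalamus and habenula markers, against 303 CPM or less in any library of the other groups. Counts of called genes are therefore also given without ID insulin replicates 3 and 5, and directions of change without IS control replicate 5. For IS insulin replicate 1 only the ranges over single libraries left out are given.

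Few receptor genes passed the test, and those that did were higher in ID insulin or had a more positive insulin effect in iron-deficient pups. A gene was called at an adjusted p under 0.05 (edgeR quasi-likelihood test, Benjamini-Hochberg adjustment over 15439 genes). Shares of all genes given below are shares called. For counts at an unadjusted p under 0.05 no share of all genes was computed, so no excess can be read from them. Between ID insulin and IS insulin 3 of 33 were higher and 0 lower, where 2.45% of all genes were called, 1.32% higher and 1.13% lower. They were the NMDA subunit gene Grin2d, the GABA-A subunit gene Gabrg3 and the metabotropic receptor gene Grm5. Between ID insulin and ID control 1 of 33 was higher, Gabrg3, and 0 lower (3.82% of all genes called, 1.96% higher and 1.86% lower), which is near the share of all genes. Between ID insulin and IS control 0 of 33 were called (3.35% of all genes called; 9 receptor genes at an unadjusted p under 0.05, DESeq2 0 and limma voom 1). With IS control replicate 5 or ID insulin replicate 3 left out, Grin2b and Grin3a newly passed between ID insulin and IS insulin. Without ID insulin replicates 3 and 5 the counts for these 3 comparisons were 3 (Grin2d, Grm5 and Grin3a), 0 and 0. Fitted with the compared groups alone they were 0, 0 and 0, with an adjusted p of 0.0515 for Grin2d, 0.0509 for Gabrg3 and 0.0922 for Grm5 between ID insulin and IS insulin. Against the ID control libraries of number 69 or of number 70 alone, the log2 fold change of Gabrg3 in ID insulin was 0.46 or 0.43, with an adjusted p of 0.145 or 0.147.

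Iron deficiency without insulin gave no call. Between ID control and IS control 0 of 33 were called (0.291% of all genes; 4 at an unadjusted p under 0.05; 0 with DESeq2 and with limma voom), 28 of 33 log2 fold changes were negative, and the median was -0.06 beside 0.01 over all genes. Without IS control replicate 5, 22 of 33 were negative, with a median of -0.05. By setting, 29 (DESeq2), 22 (limma voom) and 18 (second title number as a block) of 33 were negative, with medians of -0.06, -0.05 and -0.02. With the tissue lists as covariates, a setting described below, the median was -0.002, and with the mitochondrial share it was -0.06. The direction of these values thus depended on the setting. Between IS insulin and IS control 0 of 33 were called (0.123% of all genes; 8 at an unadjusted p under 0.05; DESeq2 and limma voom each called Grm5), 24 of 33 were negative, and the median was -0.04 beside 0.01. Without IS control replicate 5, 21 of 33 were negative, with a median of -0.06. With the mitochondrial share of counts as a covariate, a setting described below, the median was -0.0057 beside 0.0055 over all genes. With the tissue lists as covariates it was -0.05. The interaction, which tests whether the insulin effect differed between ID and IS pups, was positive and called for 2 of 33 (0.939% of all genes, 0.512% positive and 0.427% negative), Grm5 and the NMDA subunit gene Grin3a, and for 3 of 33 (with Grin2b) without ID insulin replicates 3 and 5. With number 69 or 70 alone as ID control, the interaction was 0.45 or 0.39 for Grm5 and 0.58 or 0.55 for Grin3a, and 0 of 33 were called. A test for any difference among the 4 groups called 4 of 33, namely Grin2d, Grm5, Gabrg3 and Grin3a (5.92% of all genes). Leaving out 1 library ended this call in 24 of 32 fits for Grin3a, in 10 for Gabrg3, in 1 for Grm5 (without IS insulin replicate 2, adjusted p = 0.0550) and in 0 for Grin2d. The comparisons share groups, so their values are not independent of one another.

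**Figure D1:**
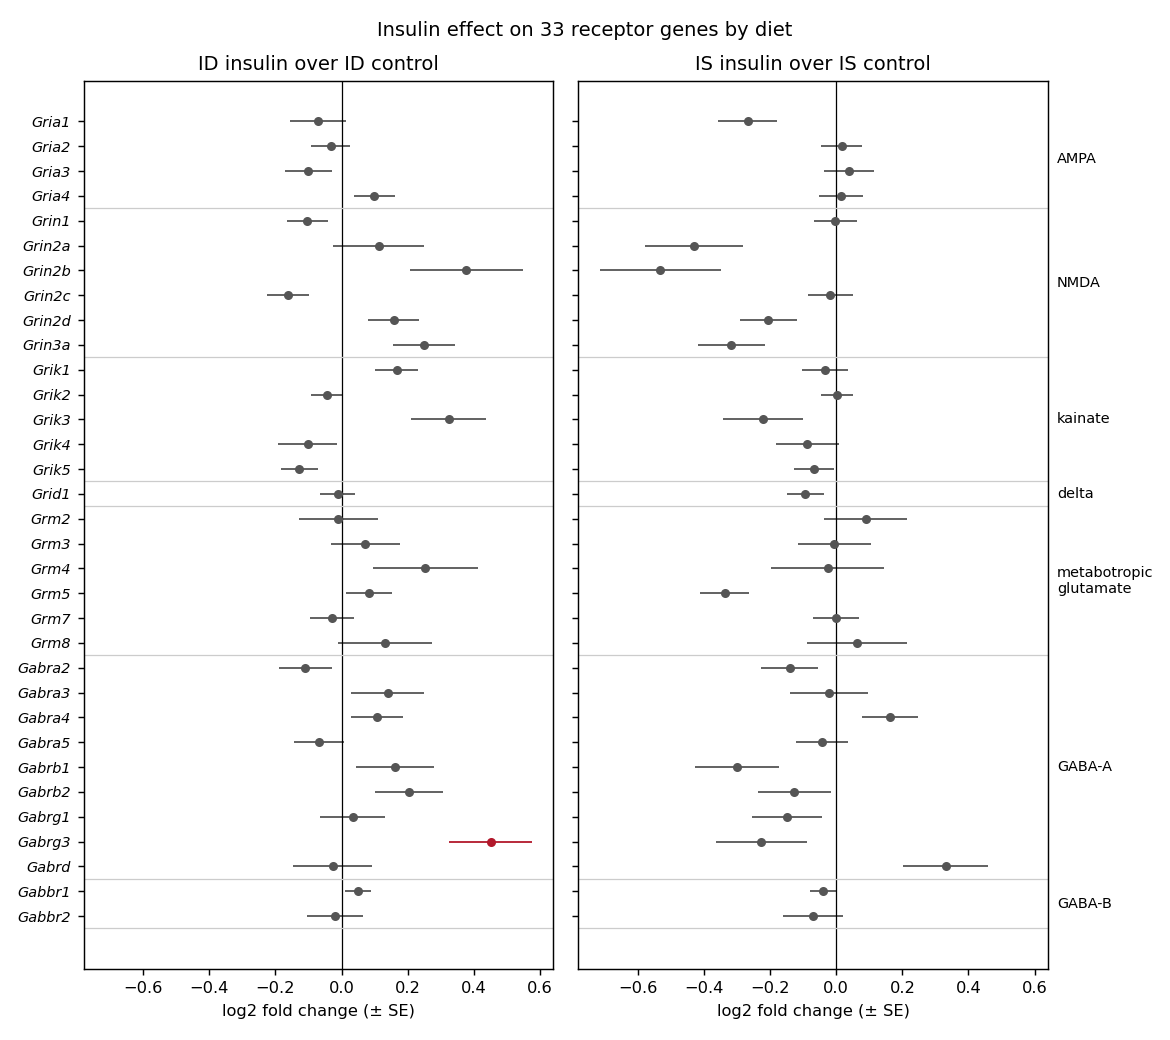
Log2 fold changes (points) with standard errors (lines) of the 33 receptor genes, by receptor class, for ID insulin over ID control on the left and IS insulin over IS control on the right, from the fit over 32 libraries. Gabrg3 (red, 0.45) is the only called gene in the left panel and no gene is called in the right one, where 24 of 33 points lie below 0.

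Markers of other cell types and tissues were called in the same comparisons. Of 122 tested markers in 13 lists, 10 were higher and 10 lower between ID insulin and ID control, 5 higher and 4 lower between ID insulin and IS insulin, and 1 higher and 3 lower in the interaction. Between ID insulin and ID control, 4 of 4 blood markers were higher (summed 386 to 2174 CPM in ID insulin, 372 to 959 in ID control). In the same comparison 4 of 6 meninges markers were lower (170 to 255 CPM in ID insulin, 223 to 442 in ID control). Of 12 thalamus and habenula markers 2 were called higher and 1 lower (216 to 778 CPM in ID insulin, 205 to 303 in ID control). Their log2 fold changes were positive for 11 of 12, with a median of 0.63 and 10 at an unadjusted p under 0.05 (edgeR). Choroid plexus markers ranged from 472 to 6952 CPM in ID insulin, 1506 to 6458 in ID control, 173 to 5173 in IS insulin and 140 to 3926 in IS control. Between ID insulin and IS insulin 2 of 4 blood markers (488 to 1218 CPM in IS insulin), 1 of 12 thalamus and habenula markers and 0 of 6 meninges markers were called. Of these 12 thalamus and habenula markers, 11 had positive values there (median 0.60, 9 at an unadjusted p under 0.05, edgeR). Of 9 oligodendrocyte precursor markers (674 to 875 CPM in ID insulin, 657 to 732 in ID control, 670 to 734 in IS insulin, 697 to 786 in IS control), Gpr17 and Vcan were higher in ID insulin than in ID control. Gpr17 was also higher in ID insulin than in IS insulin and was called in the interaction (0.47, edgeR adjusted p = 0.00244). Of 11 myelin markers Enpp6 was higher and Mal lower in ID insulin than in ID control. Mal was also lower against IS insulin and IS control and negative in the interaction (-0.74, edgeR adjusted p = 0.0242). Most of the list went the other way from Mal, except against IS insulin. Positive values were held by 10 of 11 against ID control, 5 against IS insulin, 9 against IS control and 8 in the interaction. The list summed to 17281 to 31059 CPM in ID insulin and 14938 to 23044 in ID control. All 8 endothelial markers had negative values between ID insulin and ID control (223 to 347 CPM in ID insulin, 339 to 376 in ID control), where Cdh5 was called, and Slco1a4 was called in the interaction (-0.50, edgeR adjusted p = 0.0324). Of 10 astrocyte markers Gjb6 and Aldoc were lower in ID insulin than in IS insulin, and the cortical marker Lamp5 was lower there and in the interaction. Gjb6 was also lower in ID insulin than in ID control (edgeR adjusted p = 0.00751) and IS control (edgeR adjusted p = 0.0103). Of 12 principal neuron markers Wfs1 was lower in ID insulin than in ID control (-0.38, edgeR adjusted p = 0.0257). Dsp, a low gene at 1.36 to 6.41 CPM over all libraries, was higher in ID insulin than in IS insulin and IS control. Of the 12 markers, 8 had negative values for ID insulin against ID control, 7 against IS insulin and 10 against IS control. The principal neuron list summed to 1052 to 1496 CPM in ID insulin and 1358 to 1637 in ID control. Between ID insulin and IS insulin 0 of 12 interneuron markers were called (6 at an unadjusted p under 0.05, 7 positive and 5 negative values). The part of these neuronal, precursor, myelin, endothelial, astrocyte and cortical markers in the receptor values was not tested. With the mean log2 levels of the thalamus and habenula, choroid plexus, meninges and blood lists as covariates, a setting chosen after seeing the data, 0 of 33 receptor genes were called in any comparison, and 7 genes of all were called between ID insulin and ID control in place of 589. In that fit the log2 fold change was 0.44 for Grin2d and 0.51 for Gabrg3 between ID insulin and IS insulin (adjusted p = 0.0876 and 0.188, edgeR). Mitochondrially encoded transcripts took 6.84% to 11.99% of counts in ID insulin, 7.47% to 9.30% in ID control, 8.60% to 11.4% in IS insulin and 7.63% to 9.26% in IS control. With that share as a covariate, also chosen after seeing the data, 2 receptor genes were called between ID insulin and ID control (Gabrg3 and Grin3a), 1 between ID insulin and IS insulin (Grin2d) and 0 in the interaction. In bulk tissue, fewer cells of a type and less RNA per cell cannot be told apart.

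The 250 bases before the annotated start of the 4 called genes show how unlike these promoters are in base content. The sequences are those of RefSeq for the GRCr8 assembly, which has an entry for 23 of the 33 genes, and are written 5′ to 3′ on the strand of the gene. Gabrg3 lies at chr1:117382458-117382707 and Grin2d at chr1:105481237-105481486, both on the minus strand. Grin3a lies at chr5:69001559-69001808 on the minus strand and Grm5 at chr1:150733503-150733752 on the plus strand. Capitals mark the GC box of SP1.
Gabrg3: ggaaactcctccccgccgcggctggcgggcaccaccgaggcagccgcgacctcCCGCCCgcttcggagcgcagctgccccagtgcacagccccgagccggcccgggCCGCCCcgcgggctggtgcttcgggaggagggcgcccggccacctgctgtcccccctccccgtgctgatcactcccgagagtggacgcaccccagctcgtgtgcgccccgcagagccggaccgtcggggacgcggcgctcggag
Grin2d: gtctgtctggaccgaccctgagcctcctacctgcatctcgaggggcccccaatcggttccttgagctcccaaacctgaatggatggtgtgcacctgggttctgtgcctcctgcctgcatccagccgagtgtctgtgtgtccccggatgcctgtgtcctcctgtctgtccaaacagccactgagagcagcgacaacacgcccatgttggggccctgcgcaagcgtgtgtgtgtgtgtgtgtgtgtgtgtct
Grin3a: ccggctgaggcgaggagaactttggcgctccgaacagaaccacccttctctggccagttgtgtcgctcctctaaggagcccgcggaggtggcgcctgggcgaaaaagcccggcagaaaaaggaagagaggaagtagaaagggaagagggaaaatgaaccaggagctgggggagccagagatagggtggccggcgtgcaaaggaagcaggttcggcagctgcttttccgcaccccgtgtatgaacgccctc
Grm5: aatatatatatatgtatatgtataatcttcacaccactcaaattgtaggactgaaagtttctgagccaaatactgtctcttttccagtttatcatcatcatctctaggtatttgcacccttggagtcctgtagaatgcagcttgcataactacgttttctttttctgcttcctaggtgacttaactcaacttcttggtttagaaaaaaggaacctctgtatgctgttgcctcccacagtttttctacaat
The share of G and C was 78.0% for Gabrg3, 60.4% for Grin2d, 60.4% for Grin3a and 36.4% for Grm5, beside a median of 51.2% over 33469 rat promoters of this length. The window of Gabrg3 held 33 CpG dinucleotides and that of Grm5 1. Motifs were searched on both strands. GGGCGG, the GC box, occurred 2 times in the Gabrg3 window and in 30.5% of all windows, and 9 of the 23 receptor windows held it. GCGTGGGCG (0.478% of all windows) and GCGGGGGCG (2.45%) of EGR, TGACGTCA of CRE (1.59%) and TGANTCA of AP-1 (6.34%) had no match in these 4 windows. A match is a match of letters only.

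Among NMDA receptor genes, Grin2d was the most stable call. Grin2d (ENSRNOG00000021063) encodes a subunit with slow kinetics that is abundant early in brain development and in interneurons of the hippocampus. Its lowest, median and highest levels were 11.0, 15.1 and 17.0 CPM in ID insulin, 12.2, 13.2 and 15.3 CPM in ID control, 8.27, 10.9 and 12.9 CPM in IS insulin and 10.8, 12.5 and 14.6 CPM in IS control. ID insulin and IS insulin overlapped in part, with 6 of 8 ID insulin libraries above all 7 IS insulin libraries. The log2 fold change of ID insulin over IS insulin was 0.43 (SE 0.08, edgeR adjusted p = 0.00583), and the call was kept when any 1 of the 32 libraries was left out (adjusted p up to 0.0186). Neither insulin effect passed alone: the log2 fold change was 0.16 (SE 0.08, edgeR adjusted p = 0.257) for ID insulin over ID control and -0.21 (SE 0.09, edgeR adjusted p = 0.222) for IS insulin over IS control. The difference between these effects was 0.36 (SE 0.12, edgeR adjusted p = 0.0994).

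Grin3a (ENSRNOG00000005723) encodes a subunit that lowers the calcium permeability of NMDA receptors and is prominent in early postnatal life. It had 19.8, 26.0 and 31.0 CPM (lowest, median, highest) in ID insulin and 17.7, 22.4 and 26.2 CPM in ID control. In iron-sufficient pups it had 15.1, 21.4 and 24.8 CPM in IS insulin and 22.5, 24.9 and 31.1 CPM in IS control, with 5 of 7 IS insulin libraries below every IS control library. Its insulin effect differed between the diets by 0.57 on the log2 scale (SE 0.14, edgeR adjusted p = 0.0412), from a log2 fold change of 0.25 (SE 0.09, adjusted p = 0.137) in ID pups and -0.32 (SE 0.10, adjusted p = 0.131) in IS pups. This call is near the threshold. It was lost in 16 of 32 fits that left out 1 library, with an adjusted p of up to 0.0830. The libraries were ID insulin replicates 2, 5, 6, 7 and 8, ID control replicates 3, 4, 5, 7 and 8, IS insulin replicates 1 and 2 and IS control replicates 2, 5, 6 and 7.

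Grin2b (ENSRNOG00000008766), whose product dominates forebrain NMDA receptors around birth, had the widest spread of fold changes among the NMDA genes but was not called. It had 52.4, 86.4 and 97.6 CPM in ID insulin, 39.0, 56.7 and 97.9 CPM in ID control, 34.2, 54.4 and 75.3 CPM in IS insulin and 55.8, 73.1 and 141 CPM in IS control. All group ranges overlapped, and 7 of 8 ID insulin libraries lay above all IS insulin libraries. Its log2 fold change was 0.57 (SE 0.18, edgeR adjusted p = 0.0785) for ID insulin over IS insulin, and its insulin effects differed between the diets by 0.91 (SE 0.25, edgeR adjusted p = 0.0647), which DESeq2 and limma voom called. Grin2c (ENSRNOG00000003280), best known from cerebellar granule cells, had 56.1, 61.6 and 78.6 CPM in ID insulin, 64.7, 71.7 and 81.5 CPM in ID control, 61.6, 74.1 and 80.7 CPM in IS insulin and 68.0, 73.6 and 83.7 CPM in IS control. Of the ID insulin libraries, 6 of 8 were below all IS control libraries (log2 fold change -0.19, SE 0.07, edgeR adjusted p = 0.0980). Grin2a had a log2 fold change of 0.11 for ID insulin over ID control and -0.43 for IS insulin over IS control (edgeR adjusted p = 0.701 and 0.154). Grin1, the obligatory subunit, had -0.10 and 0.00 in the same 2 comparisons.

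**Figure D2:**
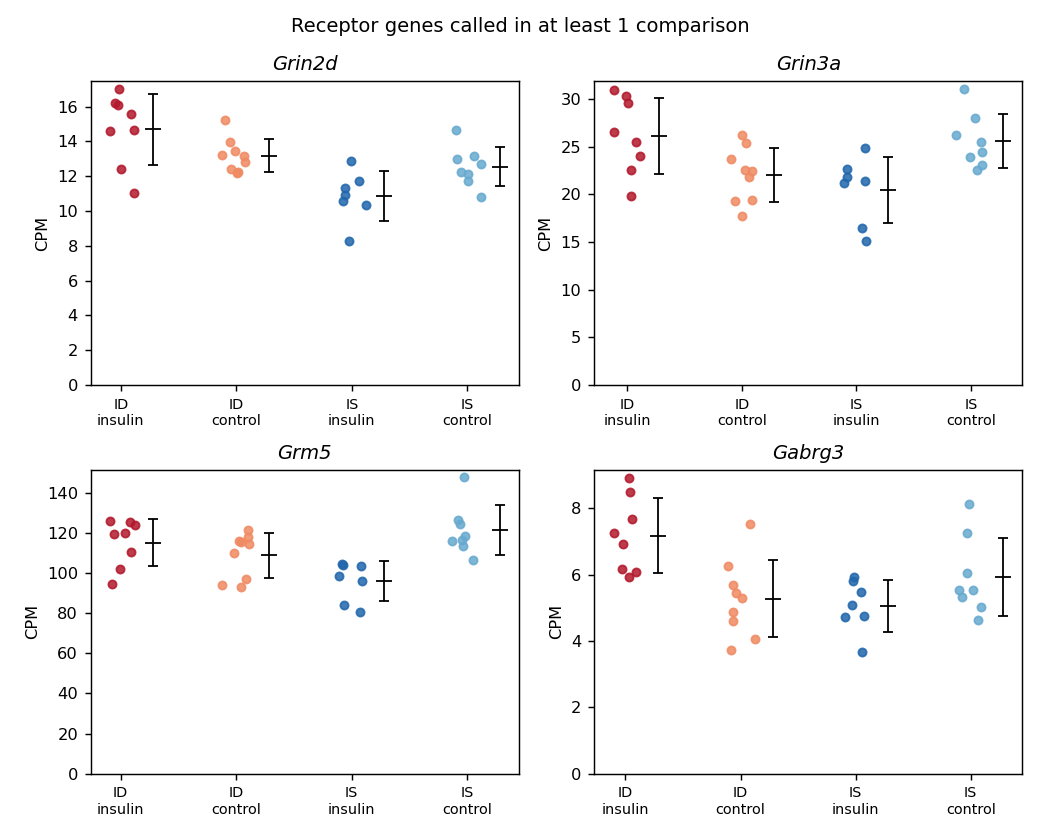
CPM of the 4 called receptor genes in each library (points), with the mean and SD of each group (bars), for ID insulin, ID control, IS insulin and IS control. Grin2d reaches 17.0 CPM in ID insulin against 12.9 CPM in IS insulin, and all 7 IS insulin points of Grm5 lie below all 8 IS control points.

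AMPA receptor genes had no call. Gria1 and Gria2 encode the subunits of most AMPA receptors of pyramidal cells, and the Gria2 subunit, once its RNA is edited, makes the channel impermeable to calcium. Gria1 had 253, 329 and 400 CPM in IS insulin and 329, 377 and 424 CPM in IS control, a log2 fold change of -0.27 (SE 0.09, edgeR adjusted p = 0.147). Of the IS insulin libraries, 4 of 7 were below all IS control libraries. For ID insulin over ID control the 4 AMPA receptor genes had log2 fold changes of -0.10 (Gria3) to 0.10 (Gria4), with a lowest adjusted p of 0.388. For ID control over IS control they had -0.11 (Gria1) to 0.00 (Gria3).

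Kainate and delta receptor genes had no call by edgeR either. Grik3 (ENSRNOG00000008992), a low-affinity kainate subunit, had 21.8, 26.4 and 31.6 CPM in ID insulin, 15.1, 21.7 and 28.3 CPM in ID control, 17.2, 23.3 and 30.4 CPM in IS insulin and 20.9, 28.4 and 34.9 CPM in IS control. The 4 ranges overlapped. ID control was lowest by median (log2 fold change over IS control -0.34, SE 0.11, edgeR adjusted p = 0.198), and ID insulin over ID control was 0.32 (SE 0.11, edgeR adjusted p = 0.104). Its insulin effects differed between the diets by 0.54 (SE 0.17), at an adjusted p of 0.0879 by edgeR and 0.0480 by DESeq2, which called it. Grid1 (ENSRNOG00000055499), a member of the delta family that links synapses through secreted partners, had 29.6, 35.2 and 37.9 CPM in ID insulin, 31.0, 35.2 and 38.9 CPM in ID control, 32.7, 36.9 and 39.6 CPM in IS insulin and 35.2, 38.3 and 42.2 CPM in IS control. Of the ID insulin libraries 4 of 8, and of the ID control libraries 4 of 9, lay below every IS control library. Its log2 fold changes over IS control were -0.16 for ID insulin (SE 0.05, edgeR adjusted p = 0.0903) and -0.15 for ID control (SE 0.05, edgeR adjusted p = 0.229), both using the same IS control libraries. Grik1, Grik2, Grik4 and Grik5 ranged from -0.13 (Grik5) to 0.17 (Grik1) for ID insulin over ID control, with adjusted p from 0.145 to 0.632.

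Of the 6 metabotropic glutamate receptor genes 1 was called. Grm5 (ENSRNOG00000016429), which encodes the group I receptor that couples to phospholipase C and works beside NMDA receptors in synaptic plasticity, was that gene. The products of the others, Grm2, Grm3, Grm4, Grm7 and Grm8, inhibit adenylyl cyclase. Grm5 had 94.4, 120 and 126 CPM in ID insulin, 93.1, 114 and 121 CPM in ID control, 80.6, 98.7 and 105 CPM in IS insulin and 107, 117 and 148 CPM in IS control. IS insulin did not overlap with IS control, since all 7 libraries lay below all 8, while 6 of 8 ID insulin libraries lay above all IS insulin libraries. The closest pair of IS insulin and IS control libraries had 104.6 and 106.6 CPM. How many of all genes separate groups in this way was not computed. The log2 fold change of IS insulin over IS control was -0.34 (SE 0.07) and missed the threshold at an edgeR adjusted p of 0.0552, with 0.123% of all genes called. DESeq2 and limma voom gave an adjusted p of 0.00663 and 0.0475. The insulin effect of Grm5 differed between the diets by 0.42 (SE 0.10, edgeR adjusted p = 0.0386), with 0.08 (SE 0.07, adjusted p = 0.542) in ID pups.

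Leaving out 1 library ended the interaction call of Grm5 in 14 of 32 fits (adjusted p up to 0.0772). These were the fits without ID insulin replicates 2, 4, 5, 6 or 7, ID control replicates 4, 5 or 7, IS insulin replicates 1, 2 or 4, or IS control replicates 4, 5 or 7. Between ID insulin and IS insulin the log2 fold change of Grm5 was 0.26 (SE 0.07, edgeR adjusted p = 0.0490). That call was kept in 7 of 32 such fits, those without ID insulin replicates 1 or 3, ID control replicates 1, 4 or 5, IS insulin replicate 6 or IS control replicate 5, and lost without any other single library, with adjusted p up to 0.112. The other metabotropic receptor genes had log2 fold changes of -0.03 (Grm7) to 0.25 (Grm4) for ID insulin over ID control and -0.03 (Grm4) to 0.09 (Grm2) for IS insulin over IS control. Grm4 had 15.6, 23.2 and 52.1 CPM in ID insulin, and the highest value was that of replicate 5, the library with the high thalamus and habenula sum, whose part in this value was not tested.

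Among GABA-A receptor genes, Gabrg3 (ENSRNOG00000014862) was the only one called. It encodes a gamma subunit, the kind that places the benzodiazepine site of these receptors beside an alpha subunit. Gabrg3 had 5.94, 7.09 and 8.90 CPM in ID insulin, 3.73, 5.29 and 7.54 CPM in ID control, 3.66, 5.09 and 5.93 CPM in IS insulin and 4.63, 5.53 and 8.13 CPM in IS control. All 8 ID insulin libraries lay above all 7 IS insulin libraries, although the closest pair had 5.94 and 5.93 CPM, and 3 of 8 lay above all ID control libraries. The share of all genes with such a separation was not computed. The lowest library had 80 reads on the gene, so its counting error is larger than that of the other called genes. Gabrg3 was higher in ID insulin than in ID control by a log2 fold change of 0.45 (SE 0.12, edgeR adjusted p = 0.0358) and higher than in IS insulin by 0.51 (SE 0.13, edgeR adjusted p = 0.0383). The difference of the insulin effects was 0.68 (SE 0.19, edgeR adjusted p = 0.0626).

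The call of Gabrg3 between ID insulin and ID control was lost without ID insulin replicates 4, 5 or 8 or ID control replicates 3, 4, 5, 6 or 7 (adjusted p up to 0.0797). That between ID insulin and IS insulin was lost without ID insulin replicates 4, 5, 6 or 8 or IS insulin replicates 1, 2, 3 or 4 (adjusted p up to 0.0888). It was also lost without ID insulin replicates 3 and 5 together, at an adjusted p of 0.0715 against ID control and 0.0547 against IS insulin. Gabrg3 is adjacent to Gabra5 in the RefSeq gene order, and Gabra5, the alpha subunit of extrasynaptic receptors on pyramidal cells, had log2 fold changes of -0.07 for ID insulin over ID control and -0.08 for ID insulin over IS insulin (edgeR adjusted p = 0.659 and 0.601).

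The other 8 GABA-A receptor genes ranged from -0.11 (Gabra2) to 0.21 (Gabrb2) for ID insulin over ID control. For IS insulin over IS control they ranged from -0.30 (Gabrb1) to 0.33 (Gabrd), with a lowest adjusted p of 0.193. Gabrd encodes the delta subunit of tonic receptors, which dentate granule cells and the thalamus express. It had 23.5, 28.2 and 34.4 CPM in IS insulin and 19.8, 23.0 and 26.6 CPM in IS control, and 6 of 7 IS insulin libraries were above all IS control libraries. Gabra2, Gabrg1, Gabra4 and Gabrb1 are neighbours in the RefSeq gene order, each with at most 1 gene between it and the next of them. For IS insulin over IS control these 4 had log2 fold changes of -0.14, -0.15, 0.16 and -0.30. The GABA-B receptor genes Gabbr1 and Gabbr2 had log2 fold changes of 0.05 (SE 0.04) and -0.02 (SE 0.08) for ID insulin over ID control, with edgeR adjusted p of 0.499 and 0.927.

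Some receptor genes also varied together between libraries of the same group. Pairs of other genes were not examined, so whether this is particular to receptor genes was not tested. The part of tissue content in it was not tested either. Of 28 pairs among the 8 genes with the lowest p in the test among the 4 groups, 25 had a positive correlation of log2 CPM centred on group means, and 6 passed a permutation test that shuffled libraries within groups (100000 permutations, adjusted p under 0.05 over 28 pairs). Grm5 and Grin2b had a Pearson r of 0.79 (adjusted p = 2.8e-04 by permutation, unadjusted p = 1e-05, the smallest the permutations can give) and a Spearman rho of 0.71 (adjusted p = 8.4e-04 by permutation) over 32 libraries. Within ID insulin, ID control, IS insulin and IS control r was 0.77, 0.78, 0.77 and 0.91. Without the 2 libraries farthest from the median of Grm5 it was 0.73.

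The other 5 pairs were Gabrg3 with Grin2b (r 0.72, rho 0.60), Grm5 with Grin3a (0.68, 0.65), Gabrg3 with Grm5 (0.64, 0.57), Gabrg3 with Grik3 (0.51, 0.51) and Grin3a with Grin2b (0.49, 0.49). Their adjusted p by permutation was 2.8e-04, 7.47e-04, 0.00175, 0.0329 and 0.0245 for r. For rho it was 0.00635, 0.0035, 0.00938, 0.0274 and 0.0274. Without the 2 libraries farthest from the median of the first gene r was 0.61, 0.60, 0.55, 0.39 and 0.47. In ID insulin alone, Gabrg3 had an r of 0.34 with Grin2b and -0.03 with Grm5, against 0.77 to 0.88 in the other groups. The difference between groups was not tested. Grin2d passed with none of the 7 others (r from -0.14 to 0.39).

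**Figure D3:**
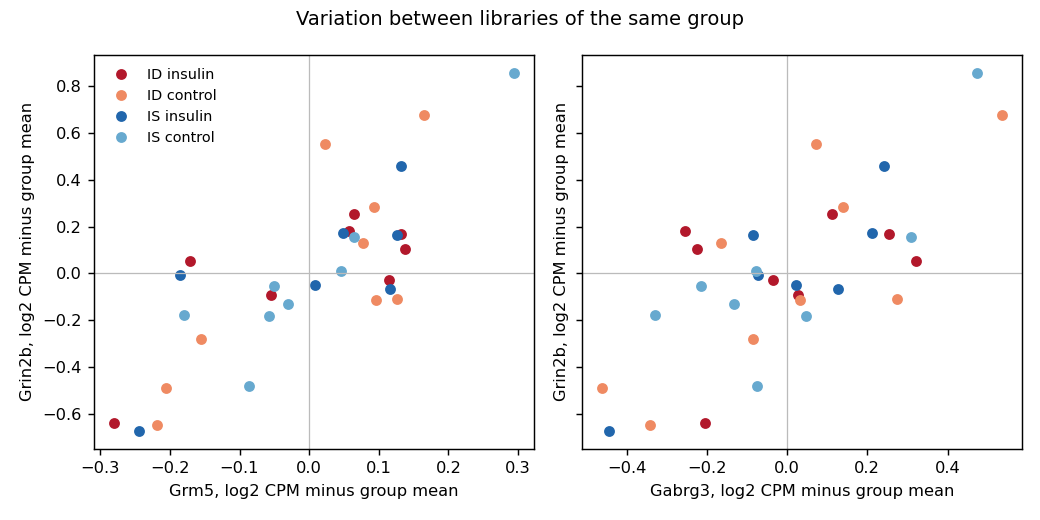
Log2 CPM of Grin2b (vertical) against that of Grm5 (left) and Gabrg3 (right), each minus its group mean, for 32 libraries coloured by group. Libraries with more Grin2b have more Grm5 (r 0.79) and more Gabrg3 (r 0.72) than others of their group.

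A pair of subunit ratios, chosen after the values were seen, was computed within each library. The log2 ratio of Grin2b to Grin2a counts, whose fall accompanies NMDA receptor maturation, was -0.87, -0.68 and -0.47 (lowest, median, highest) in ID insulin, -1.28, -1.02 and -0.65 in ID control, -1.08, -0.96 and -0.83 in IS insulin and -1.11, -0.86 and -0.55 in IS control. Of the 8 ID insulin libraries, 5 lay above all IS insulin libraries, 4 above all ID control libraries and 1 above all IS control libraries. The mean difference of ID insulin was 0.31 (SE 0.09) from ID control, 0.26 (SE 0.06) from IS insulin and 0.18 (SE 0.09) from IS control, given as a description with no test. The difference from ID control was 0.22 against the libraries of number 69 alone, 0.42 against those of number 70 alone and 0.25 without ID insulin replicates 3 and 5.

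The log2 ratio of Gria1 to Gria2 was -1.51, -1.25 and -1.05 in ID insulin, -1.45, -1.22 and -1.08 in ID control, -1.84, -1.36 and -1.14 in IS insulin and -1.20, -1.15 and -0.995 in IS control. The mean difference was -0.29 (SE 0.09) for IS insulin minus IS control and -0.05 (SE 0.07) for ID insulin minus ID control. Of the 7 IS insulin libraries, 6 lay below all IS control libraries. So did 6 of 9 ID control and 4 of 8 ID insulin libraries, with mean differences from IS control of -0.10 (SE 0.04) and -0.15 (SE 0.07). A low ratio beside IS control was therefore not particular to insulin-treated pups.

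**Figure D4:**
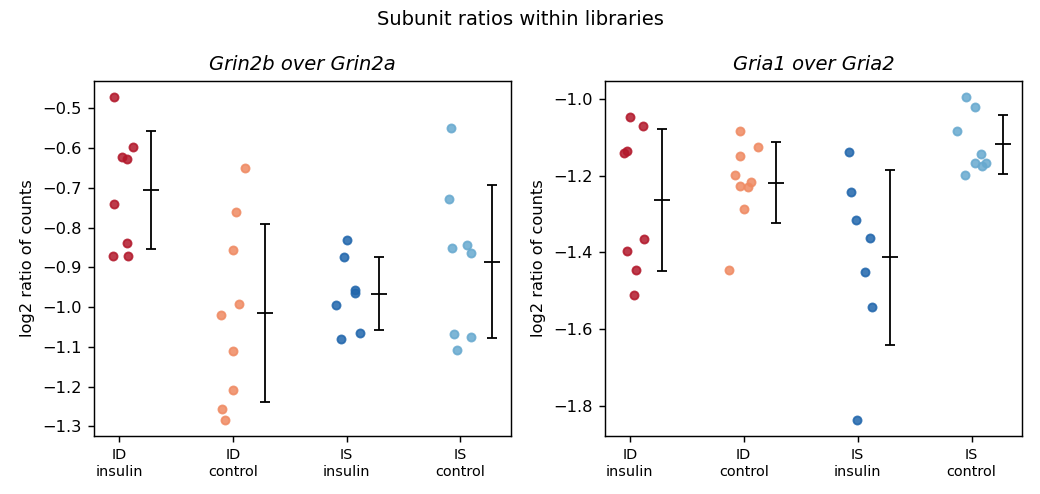
Log2 ratio of Grin2b to Grin2a counts (left) and of Gria1 to Gria2 counts (right) in each library (points), with the mean and SD of each group (bars), for ID insulin, ID control, IS insulin and IS control. The median Grin2b to Grin2a ratio is -0.68 in ID insulin and -1.02 in ID control.

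Genes that serve these receptors were counted by list. Of 25 tested auxiliary proteins of glutamate receptors, 1 was higher and 2 were lower in ID insulin than in ID control, where 3.82% of all genes were called. Cacng5, a transmembrane AMPA receptor regulatory protein, rose to 20.2 ± 4.46 CPM in ID insulin, against 15.4 ± 2.06 CPM in ID control (SD, n = 8 and 9; log2 fold change 0.39, SE 0.11, edgeR adjusted p = 0.0416). Nptx2, a pentraxin that clusters AMPA receptors, fell to 63.8 ± 9.57 CPM in ID insulin, against 78.9 ± 7.92 CPM in ID control (log2 fold change -0.31, SE 0.08, edgeR adjusted p = 0.0205). Prrt1, another AMPA receptor partner, fell to 169 ± 21.1 CPM in ID insulin, against 202 ± 19.3 CPM in ID control (-0.25, SE 0.07, edgeR adjusted p = 0.0355). Without ID insulin replicates 3 and 5, a setting added after seeing the data for these lists, their log2 fold changes were 0.29, -0.24 and -0.18 and none of these 3 passed (edgeR adjusted p = 0.144, 0.0599 and 0.123). The median over the 25 was -0.03, beside 0.00 over all genes. Olfm1, a secreted AMPA receptor partner, had 875 ± 120 CPM in ID insulin, 1039 ± 88.1 CPM in IS insulin and 1027 ± 66.8 CPM in IS control. It was the only one of the 25 called between ID insulin and IS insulin (log2 fold change -0.25, edgeR adjusted p = 0.0489) and between ID insulin and IS control (-0.23, edgeR adjusted p = 0.0493). Without replicates 3 and 5 neither passed (adjusted p = 0.122 and 0.203, edgeR).

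Of 20 genes for glutamate release, uptake and metabolism, 0 were called between ID insulin and ID control by edgeR (7 at an unadjusted p under 0.05). For unadjusted counts in these lists the share of all genes was not computed. The vesicular glutamate transporter gene Slc17a8 was higher in ID insulin than in IS insulin (log2 fold change 0.39, edgeR adjusted p = 0.0489), at 7.99 ± 1.22 CPM in ID insulin and 6.15 ± 1.13 CPM in IS insulin (SD, n = 8 and 7). The glutamine transporter gene Slc38a3 was higher in ID insulin than in IS control (0.22, edgeR adjusted p = 0.0246), at 117 ± 8.40 CPM in ID insulin and 99.9 ± 9.48 CPM in IS control. Without replicates 3 and 5 the adjusted p was 0.0579 for Slc17a8 and 0.0905 for Slc38a3 (edgeR). Of 16 genes for GABA synthesis, release, uptake and chloride handling, the GABA transporter gene Slc6a13 fell to 17.2 ± 3.05 CPM in ID insulin, against 28.7 ± 7.58 CPM in ID control (-0.74, SE 0.18, edgeR adjusted p = 0.0205). Slc6a13 is known from meninges and vessels, and the part of these tissues in its value was not tested. With the 4 tissue lists as covariates its log2 fold change was 0.14 (edgeR adjusted p = 0.793). In that fit Cacng5, Nptx2 and Prrt1 had 0.03, -0.47 and -0.23, and 7 genes of all were called between ID insulin and ID control. The loss of a call there is therefore not particular to a gene. Wnk3, a kinase that regulates chloride transporters, was higher in ID insulin than in IS insulin (0.45, SE 0.11, edgeR adjusted p = 0.0265), and its insulin effect differed between the diets by 0.65 (SE 0.15, edgeR adjusted p = 0.0278). With the same covariates 0 of the 10 calls named in these 3 lists passed. None of these lists held a gene called by edgeR between ID control and IS control (1 to 4 genes per list at an unadjusted p under 0.05) or between IS insulin and IS control (1 to 5 genes per list). Of 22 scaffold and trafficking genes of GABA receptors 0 were called in any of the 6 comparisons (2 to 6 per comparison had an unadjusted p under 0.05).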

How the data were processed

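The authors deposited a table of read counts per gene for 32 rat hippocampus libraries. Per the submitters' processing notes, reads were trimmed with Trimmomatic (version 0.40), inspected with FastQC, aligned with HISAT2 (version 2.1.0) and counted with featureCounts, and the builds Rnor_6.0 and mm10 are named without a role. Strand use in counting is not given in the sources used here, so overlapping and antisense genes are uncertain. Counts were fitted with edgeR (version 4.0.16, R version 4.3.3) after TMM scaling and filterByExpr by group (15439 genes kept), using the quasi-likelihood test with 1 coefficient per group over all 32 libraries (28 residual degrees of freedom), adjusted by Benjamini-Hochberg at 0.05. The fit was tested on simulated independent libraries with the same dispersion for all genes and changes in ID insulin only. The simulation had no divergent library, litter or tissue difference, so it cannot speak to their effect on the calls. DESeq2 (version 1.42.0) and limma voom (version 3.58.1) were alternatives. Limma voom was run throughout with quality weights, which give divergent libraries less weight, so it differs from edgeR in more than the tool. Statistics are given in full for called receptor genes and for those of lowest p in the test among the 4 groups, up to 8, and up to 3 called genes per pathway list and comparison are named. The receptor genes, lists, tests and alternatives were chosen with earlier results of these data known. Correlations used log2 CPM with a prior count of 2. Alternatives were another normalization, filter or tool, a replicate block, subsets of libraries and covariates. Replicate numbers name libraries only.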

Additional observations from a re-analysis of the deposited data

Results flagged for a closer look

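Of 132 combinations of a receptor gene and a group, 10 had 1 library far from the rest of its group by Dixon's criterion, which by chance marks about 1 in 20. In ID insulin, replicate 3 was low for Grin1 (351 CPM, nearest library 486), Grin2a (72.6 CPM, nearest 131) and Grin2b (52.4 CPM, nearest 76.7), and replicate 5 was high for Grm4 (52.1 CPM, nearest 30.9). In ID control, replicate 9 was high for Gabrd (33.3 CPM, nearest 27.8). In IS insulin, replicate 1 was low for Grik5 (142 CPM, nearest 167). In IS control, replicate 5 was high for Grin2b (141 CPM, nearest 86.8), Grik2 (80.5 CPM, nearest 71.5) and Grm5 (148 CPM, nearest 126), and replicate 4 was high for Grik1 (22.3 CPM, nearest 19.6). The effect of insulin differed between ID and IS pups for Grin3a (log2 difference 0.57, edgeR adjusted p = 0.0412) and Grm5 (0.42, edgeR adjusted p = 0.0386). What set these libraries apart was not tested.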

How the results depend on the processing

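Across 13 other settings and single libraries left out, the call of Grin2d between ID insulin and IS insulin was lost only with the compared groups alone and with the tissue lists as covariates. Of 616 other values of the 8 described genes (no library left out singly), 552 kept direction and side of the threshold, 32 fell short of it, 21 newly passed it and 11 changed sign.

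Counts of called receptor genes are given here in the order ID insulin over ID control, IS insulin over IS control, ID insulin over IS insulin, ID insulin over IS control and interaction, with 1, 0, 3, 0 and 2 in the main analysis and 4 in the test among the 4 groups. Those that moved by over 1.5 times were as follows. DESeq2 called 1 between IS insulin and IS control and 5 in the interaction. Limma voom with quality weights called 3, 1, 5, 1 and 4. Without a count filter the interaction count was 1, and with at least 1 CPM in 7 libraries IS insulin over IS control gave 1. The compared groups alone gave 0 for ID insulin over ID control and 0 for ID insulin over IS insulin. Number 69 alone as ID control gave 0 over ID control, 1 over IS insulin, 0 in the interaction and 2 among the groups. Number 70 alone gave 0 over ID control, 1 for IS insulin over IS control, 0 in the interaction and 2 among the groups. Without ID insulin replicates 3 and 5, ID insulin over ID control gave 0 and IS insulin over IS control 1. The tissue covariates gave 0 for ID insulin over ID control, over IS insulin, in the interaction and among the groups. The mitochondrial share as covariate gave 2, 1, 0 and 2 for the same results. Leaving out each library in turn gave 0 to 1, 0 to 1, 1 to 6, 0 to 1, 0 to 5 and, among the groups, 1 to 6.

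The replicate block (second title number) gave 0 for ID insulin over ID control, 0 in the interaction and 2 among the groups. Over the 33 receptor genes, 9 of 40 pairs of same-numbered libraries deviated together with a correlation over 0.1. The median was -0.08 and the range -0.60 to 0.46. The numbers were therefore not taken to pair pups, although 33 genes cannot settle whether they do.

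Over all genes, ID control over IS control gave 45 calls (114 with DESeq2, 242 with limma voom), ID insulin over ID control 589 (150 with number 69 alone), IS insulin over IS control 19 (206 with DESeq2) and the interaction 145 (423 with DESeq2, 9 with the replicate block). With 1 library left out, the all-gene counts were 23 to 61 for ID control over IS control, 323 to 806 for ID insulin over ID control, 0 to 92 for IS insulin over IS control, 169 to 751 for ID insulin over IS insulin (378 with all libraries), 240 to 902 for ID insulin over IS control (517 with all) and 40 to 594 in the interaction.

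Sign changes concerned differences that were not called. All but that of Gabrg3 lay from -0.028 to 0.040 in the main analysis. For Grid1 in ID insulin over ID control the log2 value was 0.021 with number 69 alone, 0.020 without ID insulin replicates 3 and 5, 0.050 with tissue covariates, 0.0036 with the mitochondrial share and -0.031 to 0.017 with 1 library left out. For Grik3 in ID insulin over IS control it was 0.013 with limma voom, 0.126 with the block, 0.0037 without ID insulin replicates 3 and 5, 0.188 with tissue covariates and -0.072 to 0.041 with 1 library left out. For Grin2c in IS insulin over IS control it was 0.017 with limma voom and -0.044 to 0.019 with 1 library left out, and in ID control over IS control 0.0023 with tissue covariates. For Gabrg3 in ID control over IS control it was 0.017 with the block, against -0.168 in the main analysis and -0.253 to -0.091 with 1 library left out. In ID insulin over IS control, 1 library left out gave -0.022 to 0.203 for Grin2b and -0.0088 to 0.086 for Grin3a. The causes of these changes were not tested.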
